A study of Mus musculus with 2 samples.

Results

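The genes that encode voltage-gated sodium channels, the pore-forming subunits of voltage-gated calcium channels, the Hcn pacemaker channels and the potassium channels were followed through 2 single-cell RNA libraries of sorted mouse embryonic cells. The members were chosen by symbol alone, as the genes named Scn with a number and a or b, Cacna1a to Cacna1i, Hcn with a number, and Kcn with letters and a number, and 119 of the 33207 genes counted met that rule. They comprised 10 sodium channel alpha subunits, 4 sodium channel beta subunits, 9 calcium channel alpha-1 subunits, 4 Hcn channels, 40 voltage-gated potassium channel subunits, 15 accessory subunits of potassium channels, 8 calcium- or sodium-activated potassium channels, 15 inward rectifiers and 14 tandem-pore (K2P) potassium channels. The rule itself used no measured value, although the members were chosen with earlier results of these data known.

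An action potential starts when sodium channels open, ends as potassium channels open and sodium channels close, and opens calcium channels that let calcium into the cell. Inwardly rectifying and leak potassium channels hold the membrane near its resting potential in neurons and in glia, and Hcn channels carry a depolarising current that helps to set firing rhythm. In the peripheral nervous system Scn9a, Scn10a and Scn11a encode the sodium channels Nav1.7, Nav1.8 and Nav1.9, best known from nociceptive sensory neurons, whereas glial potassium channels are known for buffering the potassium that active axons release.

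Each library came from embryos carrying 1 Cre allele at the Egr2 locus (Egr2Cre/+) and a Tomato reporter at Rosa26, and 1 library was made at each stage, E11.5 and E12.5, from pooled embryos of a single litter according to the methods. Meninges and dorsal root ganglia, with the dorsal and ventral roots, were dissociated and the Tomato-positive cells were sorted. Tomato is meant to mark cells that had expressed Cre from the Egr2 locus or whose ancestors had. The purity of the sort was not tested. There was no group without Cre. The labels name the tissue as meninges and the cells as boundary cap cells, which are neural crest derivatives at the nerve entry and exit points, but both libraries also held neurons, mesenchymal cells and mural cells, and the later one held myeloid cells. After the study's filters on mitochondrial share, depth and doublet score, 833 cells with a median of 11601 UMIs (unique molecular identifiers, each counted as 1 captured transcript) were kept at E11.5, and 3496 cells with a median of 6140 UMIs at E12.5. Of the cell barcodes kept, 7 occurred in both libraries. The levels given are UMIs of a gene per 1000000 UMIs (CPM) of the summed cells of a class, with exact Poisson intervals. Ratios carry exact conditional binomial intervals, and all intervals are 95% and cover counting error only. With 1 library per stage there was no replicate spread, no difference could be tested over animals, and a stage cannot be told apart from its library.

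Cells were assigned by the presence of UMIs of a few genes that are not channel genes. Neurons had Isl1, no Sox10 and at least 2 of 6 pan-neuronal genes, and numbered 188 at E11.5 and 1286 at E12.5. Glia had Sox10 and no Isl1, and numbered 413 and 1213. Non-neural cells had neither gene, at most 1 glial gene and at least 4 genes of one non-neural list, and numbered 48 and 187. Glial genes that did not gate the neurons or the glia were compared between these classes. At E12.5 Fabp7, a glial fatty acid binding protein gene, stood at 3557 CPM in glia and 201 CPM in neurons. The neuregulin receptor gene Erbb3 stood at 117 and 4.45 CPM and the neural crest gene Foxd3 at 19.3 and 2.74 CPM. S100b separated the classes less, at 38.3 and 21.8 CPM. The non-neural class was chosen in part by low glial genes, so these genes are no check of it. Median depth was 6527 UMIs in neurons, 6088 in glia and 5964 in non-neural cells at E12.5, and 11666, 12526 and 8388 at E11.5. Cells with both Isl1 and Sox10 (104 at E11.5 and 286 at E12.5) were left out of the comparisons, and their summed level of all members was 617 and 999 CPM, between the levels of glia and neurons at each stage.

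The members were detected very unequally. Over both libraries they had 36928 UMIs in kept cells, of which the single gene Kcnmb2 gave 12871, and 39 members had at least 100 UMIs whereas 51 had under 20. No UMI in any barcode was found for 12 members, namely the sodium channel beta subunit gene Scn4b, the voltage-gated potassium channel genes Kcna3, Kcna10, Kcnc4, Kcns1 and Kcns2, the accessory gene Kcne2, the inward rectifier genes Kcnj1, Kcnj5 and Kcnj15, and the tandem-pore genes Kcnk15 and Kcnk16. Summed over all members, neurons had 1619.8 CPM at E11.5 and 2249.8 CPM at E12.5, and glia 408 and 604 CPM. When every cell was thinned to 2000 UMIs, the median neuron held UMIs of 2 members and the median glial cell of 1 at both stages, and no member was seen in 14.9% and 7.79% of neurons against 48.4% and 37.1% of glia. Among the non-neural types at E12.5, mesenchymal-like cells reached 1424 CPM, mural-like cells 1064 CPM and myeloid-like cells 166 CPM.

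**Figure D1:**
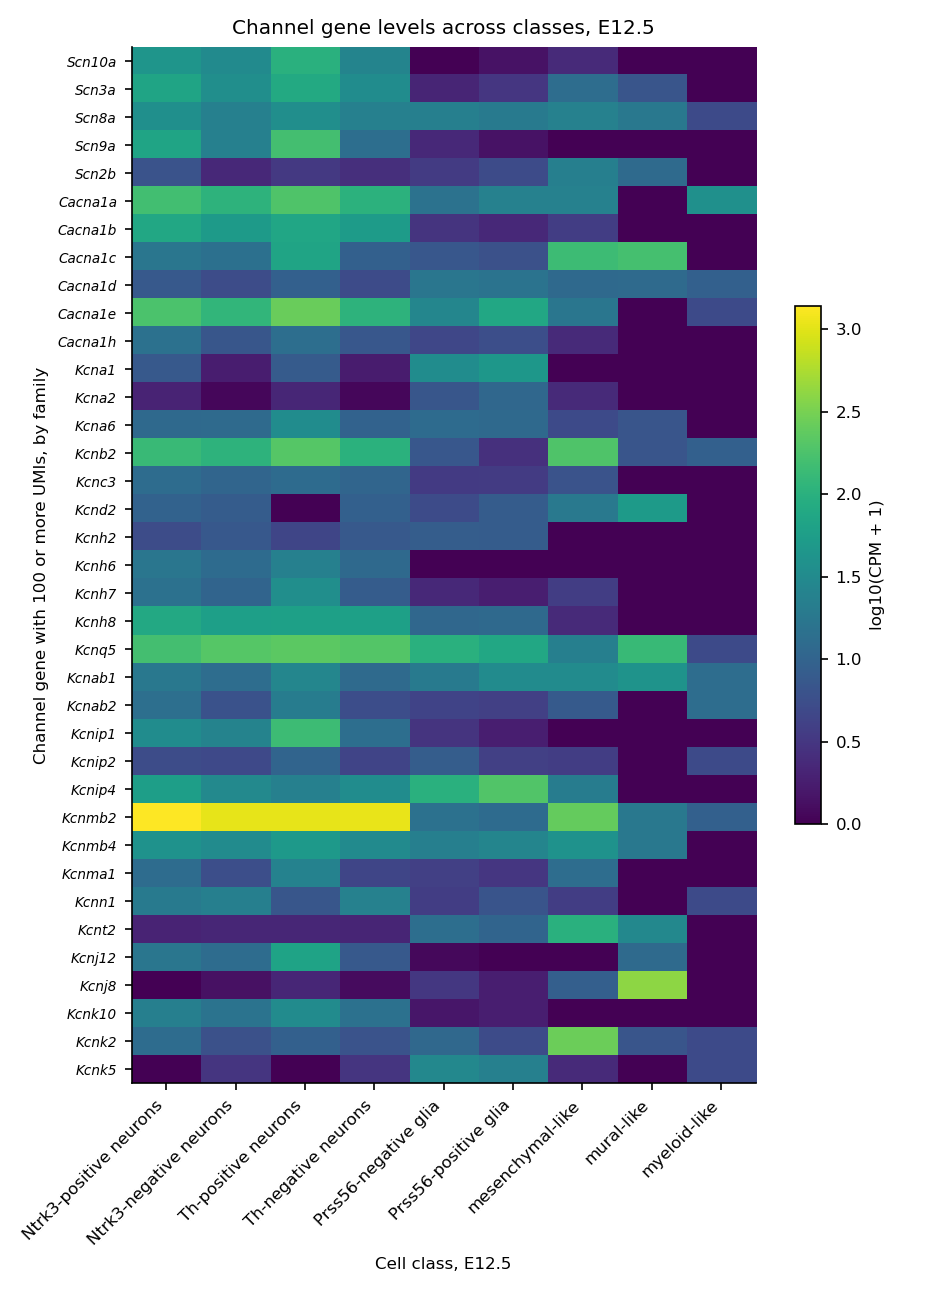
Level of the members reported here that had at least 100 UMIs (rows) in the cell classes of the E12.5 library (columns), as colour on a log10(CPM + 1) scale. Neurons are drawn split by Ntrk3 and by Th, and glia by Prss56, beside mesenchymal-like, mural-like and myeloid-like cells. Over all neurons and all glia, which have no column, Kcnmb2 stood at 1087 and 13.0 CPM. Kcnj8 stood at 407 CPM in mural-like cells against 1.79 CPM in all glia.

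Windows before listed starts of 4 members, called promoters below, are shown because the results turn on these genes. Kcnmb2 had the most UMIs of all members and Scn9a differed most with Th among all neurons. Cacna1e was the member higher in Prss56-positive glia, and Kcnj8 was the member with the largest ratio in non-neural cells. Each window is the 250 bases before the first start that RefSeq lists on GRCm38.p6, written 5′ to 3′ on the gene's strand. That build is not mm39, on which the reads were counted. Whether a listed start is the 5′ end of the gene was not tested. The Cacna1e window may lie inside the gene, since it reaches base 154726170 and the gene's 5′ end is at 154760247 on GRCm39. Capitals mark every match on either strand to 2 motifs, the Sox motif ACAAAG and the E-box CAGATG.
Kcnmb2, chr3:31902453-31902702, plus strand: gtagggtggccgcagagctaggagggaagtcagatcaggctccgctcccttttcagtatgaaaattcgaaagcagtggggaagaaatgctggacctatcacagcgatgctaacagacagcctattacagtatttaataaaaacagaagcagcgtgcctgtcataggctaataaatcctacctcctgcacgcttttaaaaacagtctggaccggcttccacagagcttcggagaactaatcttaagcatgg
Scn9a, chr2:66634963-66635212, minus strand: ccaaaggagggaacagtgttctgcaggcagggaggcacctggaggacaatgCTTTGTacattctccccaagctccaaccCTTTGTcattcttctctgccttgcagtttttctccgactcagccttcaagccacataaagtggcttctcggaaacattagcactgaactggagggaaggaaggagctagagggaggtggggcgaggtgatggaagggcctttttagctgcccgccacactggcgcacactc
Cacna1e, chr1:154725921-154726170, minus strand: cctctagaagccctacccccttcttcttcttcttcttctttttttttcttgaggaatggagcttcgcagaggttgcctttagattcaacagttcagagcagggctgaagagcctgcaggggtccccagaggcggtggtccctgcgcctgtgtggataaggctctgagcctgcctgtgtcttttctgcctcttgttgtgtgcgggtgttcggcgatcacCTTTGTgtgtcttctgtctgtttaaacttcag
Kcnj8, chr6:142571615-142571864, minus strand: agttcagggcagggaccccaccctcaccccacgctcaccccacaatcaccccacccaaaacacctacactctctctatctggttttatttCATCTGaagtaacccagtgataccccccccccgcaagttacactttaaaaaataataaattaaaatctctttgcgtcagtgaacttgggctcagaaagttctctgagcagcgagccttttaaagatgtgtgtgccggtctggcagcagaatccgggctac
The matches lie on the minus strand of the window in every case. In Scn9a the 2 Sox matches begin 199 and 171 bases before the start, in Cacna1e 1 begins 32 bases before it, in Kcnj8 1 E-box match begins 160 bases before it, and Kcnmb2 has neither motif. ACAAAG occurred in the windows of 17.6% of the 85 members found in the table and of 18.6% of all 27025 genes, and CAGATG in 15.3% and 16.3%. The GC box GGGCGG was in 55.3% of the members and 35.4% of all genes, TATAAA in 5.88% and 14.3%, and the E-box CAGCTG in 23.5% and 14.7%. For the factor REST, a repressor of neuronal genes outside neurons, the left arm of its RE1 element, TTCAGCACC, was in 1.18% of the members, which is Kcnh6 alone, and 0.348% of all genes, and the right arm, GGACAGC, in 10.6% and 6.14%. The Rest transcript itself stood at 72.2 CPM in glia and 2.62 CPM in neurons at E12.5. The letters describe these windows only.

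The first comparison asks how channel genes differ between neurons and glia. At E12.5, 62 members had at least 20 UMIs over both classes, the number required for a ratio throughout. Of these 35 were 2-fold or more higher in neurons, 10 were 2-fold or more lower and 17 were neither. Of all 13990 genes that met the same minimum, 13.2% were 2-fold or more higher in neurons and 22.6% lower, and the median log2 ratio was 1.17 over the members and −0.16 over all genes. At E11.5, 32 members could be compared, of which 15 were higher (46.9%) and 9 lower (28.1%). Among all genes 11.2% were higher and 19.2% lower, and the medians were 0.45 and −0.15. By the medians the members leaned towards neurons at both stages, while genes at large leaned towards glia. At E11.5, however, the share of members lower in neurons was also above that of all genes. At E12.5 and E11.5, 57 and 87 members respectively were too sparse to be compared. Of the 32 members compared at both stages, 15 were higher in neurons at both, 6 lower at both and 7 neither at both.

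Of the 7 sodium channel alpha subunit genes that could be compared at E12.5, 4 were 2-fold or more higher in neurons and 3, namely Scn2a, Scn7a and Scn8a, were neither. Their summed level was 93.8 CPM in neurons and 25.1 CPM in glia at E11.5, and 165 and 29.4 CPM at E12.5. Scn3a (chr2:65287462-65397971, minus strand, GRCm39, as are all gene positions below), which encodes the embryonic channel Nav1.3, had 26.8 CPM in neurons and 2.17 CPM in glia at E11.5, a ratio of 12.3 (6.42 to 26.0). At E12.5 the levels were 37.6 and 1.4 CPM, a ratio of 26.8 (14.8 to 54.2). Scn9a (chr2:66310424-66465306, minus strand), described above as Nav1.7, had 31 UMIs in neurons and none in glia at E11.5, at least 23.4-fold higher against a floor of 3 UMIs. At E12.5 it had 26.9 against 1.02 CPM, a ratio of 26.3 (13.1 to 61.7). Scn10a (chr9:119435988-119548388, minus strand), the Nav1.8 gene, had 24 UMIs in neurons and none in glia at E11.5, at least 18.1-fold higher. It had 285 UMIs against 1 at E12.5, a ratio of 254 (45.3 to 10081). For each of Scn3a, Scn9a and Scn10a the intervals of the neuronal and glial levels did not overlap at either stage.

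Scn8a, which encodes Nav1.6, the main channel of mature nodes of Ranvier, was near equal in both classes. It stood at 22.8 CPM in neurons and 20.9 CPM in glia at E11.5, a ratio of 1.09 (0.763 to 1.53). The levels at E12.5 were 23.7 and 20.8 CPM, a ratio of 1.14 (0.923 to 1.41). In thinned cells a Scn8a UMI was found in 5.14% of neurons and 4.09% of glia at E12.5, and in 3.72% and 2.91% at E11.5. For Scn9a, at a like level in neurons, the shares in thinned cells at E12.5 were 2.65% of neurons and 0.17% of glia. The part of free RNA in either glial share was not tested. Scn8a was also counted at 22.8 CPM in mesenchymal-like and 4.14 CPM in myeloid-like cells. The remaining alpha genes were sparse: Scn2a, the Nav1.2 gene, stood at 3.99 CPM in neurons and 2.43 CPM in glia at E12.5 (ratio 1.64, 0.915 to 3.04). Scn7a, whose product is a sodium sensor, stood at 2.17 CPM in both (ratio 0.997, 0.491 to 2.04), and neither gene passed 2-fold. Scn1a, Scn4a and Scn11a had at most 6 UMIs in any of these classes at either stage. Thus the Nav1.9 gene Scn11a, next to Scn10a on chromosome 9 (chr9:119582825-119654522, minus strand), was not detectable above 2 UMIs in neurons, whose limit at E12.5 was 0.824 CPM.

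**Figure D2:**
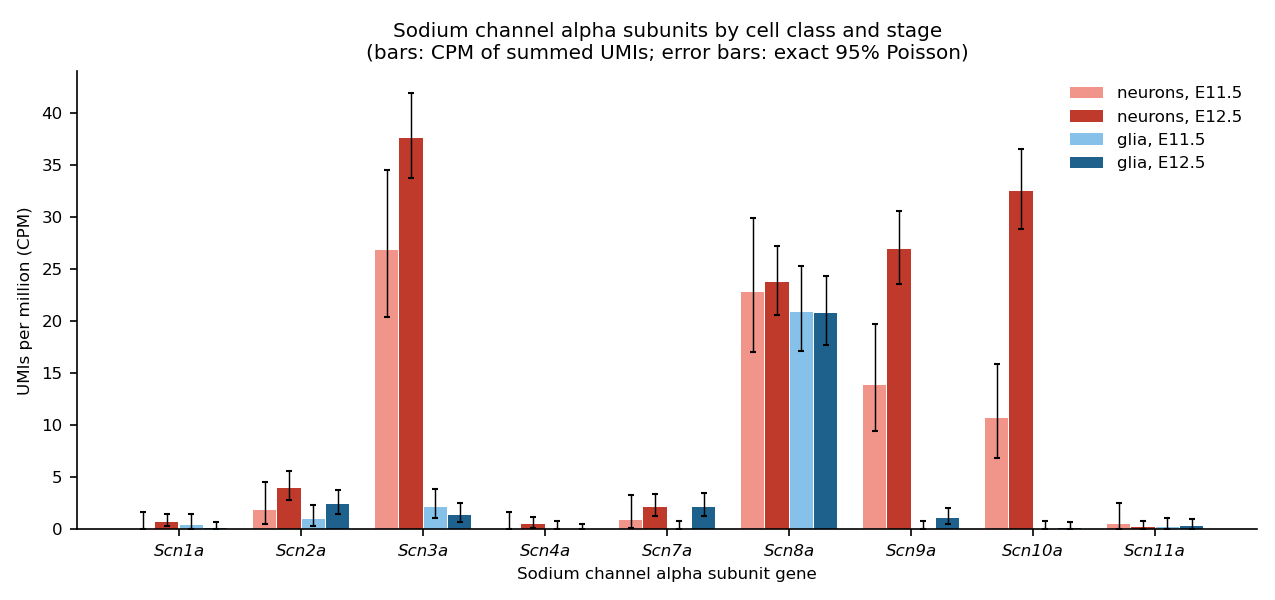
Level in CPM of the sodium channel alpha subunit genes reported here in neurons and glia of each stage, with exact 95% Poisson intervals as error bars. Scn3a, Scn9a and Scn10a were high in neurons and near 0 in glia, whereas Scn8a stood between 20.8 and 23.7 CPM in all 4 bars.

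The beta subunits, which tune gating and anchor the channels, had few UMIs, and none could be compared at E11.5. At E12.5 Scn3b was at 3.19 CPM in neurons and 1.4 CPM in glia, a ratio of 2.27 (1.1 to 5.06). Scn2b went the other way without passing 2-fold, with 1.71 CPM in neurons and 3.07 CPM in glia (ratio 0.558, 0.272 to 1.11). Of the 7 further sodium channel partners listed, which bind or cluster the alpha subunits, 6 could be compared at E12.5 and 4 were higher in neurons, among them Ank3, the ankyrin of the axon initial segment, at 483 against 83.4 CPM (ratio 5.79), and Fgf13, an intracellular channel modulator, at 258 against 37.8 CPM (ratio 6.82).

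Calcium channel genes of the presynaptic type were higher in neurons, and 2 L-type genes behaved differently. Cacna1a, the P/Q-type pore gene, had 104 CPM in neurons and 21.3 CPM in glia at E11.5, a ratio of 4.88 (3.87 to 6.19). At E12.5 the values were 112 and 16.9 CPM, a ratio of 6.63 (5.52 to 8.01). Cacna1b, the N-type gene, stood at 45.1 and 2.17 CPM at E11.5, a ratio of 20.8. Its E12.5 levels were 53.3 and 1.79 CPM, a ratio of 29.8 (17.6 to 55.0). Cacna1e (chr1:154266477-154760247, minus strand), the R-type gene of which a window is shown above, had 64.3 and 9.48 CPM at E11.5, a ratio of 6.78 (4.86 to 9.61). At E12.5 it had 122 and 41.6 CPM, a ratio of 2.92 (2.58 to 3.31), and the smaller ratio went with a higher glial level. Cacna1c (chr6:118564201-119173851, minus strand), the L-type gene of heart and smooth muscle, was lower in neurons than glia at E11.5, at 2.68 and 6.91 CPM (ratio 0.388, 0.133 to 0.931). It was higher in neurons at E12.5, at 13.8 and 5.88 CPM (ratio 2.35, 1.66 to 3.37). Cacna1d, the other widespread L-type gene, was lower in neurons at E12.5, at 4.56 against 15.6 CPM (ratio 0.293, 0.199 to 0.421). Of the 8 calcium channel accessory genes listed, 7 could be compared at E12.5 and 3 were higher in neurons. They were Cacna2d1 at 276 against 17.6 CPM (ratio 15.7, 13.2 to 18.7), Cacna2d2 at 64.7 against 1.15 CPM (ratio 56.3) and Cacnb3 at 67.5 against 4.85 CPM (ratio 13.9).

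Of the Hcn genes, Hcn3 and Hcn4 were higher in neurons at E12.5, at ratios of 4.21 and 25.0, the latter from 28 UMIs in neurons and 1 in glia. Hcn4 is best known as a pacemaker channel gene of the heart.

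Voltage-gated potassium channels formed the largest family, and 12 of the 21 that could be compared at E12.5 were higher in neurons, 3 lower and 6 neither. Kcnb2, a delayed rectifier of the Kv2 group, had 63.4 CPM in neurons and 2.57 CPM in glia at E11.5, a ratio of 24.7 (14.0 to 47.5). Its levels at E12.5 were 109.7 and 4.85 CPM, a ratio of 22.6 (16.3 to 32.1). Kcnq5, a Kv7 channel of the slow M-current, stood at 163 and 29.4 CPM at E11.5, a ratio of 5.54 (4.56 to 6.75). The E12.5 levels were 201 and 90.2 CPM, a ratio of 2.23 (2.04 to 2.44). Kcnh8, of the Elk group of ether-a-go-go channels, had 41.5 and 7.9 CPM at E11.5 and 60.1 and 10.3 CPM at E12.5, ratios of 5.26 and 5.81. Of the Erg group, Kcnh7 had 57 UMIs in neurons and 4 in glia at E11.5 (ratio 32.2, 11.9 to 122). Kcnh6 of the same group had 105 UMIs in neurons and none in glia at E12.5, at least 31.2-fold higher. Kcnc1, a Kv3 gene of fast-firing neurons, had 77 UMIs against 1 at E12.5 (ratio 68.7, 12.0 to 2749). Kcnh2 of the Erg group was near equal at E11.5, at 4.91 CPM in neurons and 5.73 CPM in glia (ratio 0.857, 0.386 to 1.77). The neuronal excess was thus found in some members of the Kv2, Kv3, Kv7, Elk and Erg groups.

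Kcna1, Kcna2 and Kcna4 of the Kv1 group were lower in neurons than in glia at E12.5, whereas Kcna6 of the same group was near equal, with 97 and 90 UMIs (ratio 0.962, 0.714 to 1.3). Kcna1 (chr6:126617360-126623347, minus strand), which in the adult is a juxtaparanodal axonal channel, had 2.68 CPM in neurons and 7.71 CPM in glia at E11.5. At E12.5 it had 1.37 and 36.3 CPM and was 26.5-fold (14.9 to 51.9) lower in neurons. Kcna2, its usual partner subunit, had no UMI in neurons and 21 in glia at E11.5, at least 3.1-fold lower. It had 2 against 56 UMIs at E12.5, 31.4-fold (8.29 to 265) lower. Kcna4, a fast-inactivating Kv1 gene, had none in neurons and 25 UMIs in glia at E12.5, at least 9.34-fold lower. In neurons Kcna1 and Kcna2 were near their floors, whereas cells positive for both Isl1 and Sox10 had Kcna1 at 15.8 CPM at E12.5.

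Among accessory subunits, Kcnmb2 (chr3:31956656-32254329, plus strand, promoter above) separated neurons from glia, although mesenchymal-like cells also held it, as given below. It encodes the beta2 subunit of the large-conductance calcium-activated potassium channel, whose N-terminus inactivates the channel. It had 1816 UMIs in 188 neurons and 6 in 413 glia at E11.5, or 811 against 1.19 CPM (ratio 684, 314 to 1867). The counts at E12.5 were 9539 against 102 UMIs, or 1087 against 13.0 CPM (ratio 83.5, 68.7 to 102). In thinned cells a Kcnmb2 UMI was present in 59% of neurons and 0% of glia at E11.5, and in 72.3% and 2.47% at E12.5. The pore subunit to which it binds, Kcnma1, was counted at 6.7 CPM in neurons and 1.19 CPM in glia at E11.5. Its E12.5 levels were 5.47 and 2.68 CPM, a ratio of 2.04. Kcnmb4, another beta subunit gene of the same channel, did not pass 2-fold, with 19.7 and 16.8 CPM at E11.5 and 32.8 and 22.7 CPM at E12.5. Kcnip4, a gene of the KChIP proteins that bind Kv4 channels, was a glial gene at both stages, with 56.3 CPM in neurons and 146 CPM in glia at E11.5, 2.6-fold lower in neurons. It had 32.0 and 127 CPM at E12.5, 3.98-fold (3.48 to 4.55) lower. A second KChIP gene, Kcnip1, went the other way at E12.5, with 25.0 against 1.66 CPM (ratio 15.0), although it overlaps another counted gene on its strand. All 3 listed Kv partner genes could be compared at E12.5 and 2 were higher in neurons, with Amigo1, a Kv2-binding membrane protein, at 28.4 against 0.894 CPM (ratio 31.7).

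Calcium- and sodium-activated, inward rectifier and tandem-pore potassium channels were divided between the classes by gene. Of the calcium- and sodium-activated channels, Kcnn1 (SK1) was higher in neurons, at 21.3 against 3.58 CPM at E12.5 (ratio 5.96). Kcnt2 (the sodium-activated Slick channel) was lower, at 1.14 against 11.8 CPM, 10.3-fold (5.36 to 22.2). Of the inward rectifiers, Kcnj12 (Kir2.2; chr11:60912944-60964099, plus strand) had 108 UMIs in neurons and 1 in glia at E12.5 (ratio 96.4, 16.9 to 3842). Kcnj10 (Kir4.1, the potassium-buffering channel of glia) had 1 UMI in neurons and 23 in glia at E11.5, 10.2-fold (1.65 to 419) lower. It had 3 and 41 UMIs at E12.5, 15.3-fold (4.89 to 77.3) lower. Among tandem-pore channels, Kcnk5 (TASK-2; chr14:20190125-20231900, minus strand) was glial, at 4.47 CPM in neurons and 22.5 CPM in glia at E11.5, 5.04-fold (2.64 to 10.8) lower. The E12.5 levels were 1.82 and 26.6 CPM, 14.6-fold (8.76 to 26.0) lower. Kcnk10 (TREK-2) was neuronal at E12.5, at 15.6 against 0.639 CPM (ratio 24.5, 10.2 to 76.5). Kcnk2 (TREK-1) was lower in neurons at E11.5, at 2.23 against 7.71 CPM, 3.45-fold (1.36 to 11.2), and was not past 2-fold at E12.5 (ratio 0.656). Kcna1, Kcna2, Kcnj10, Kcnk5 and Kcnip4 were thus each 2-fold or more higher in glia than in neurons at both stages.

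**Figure D3:**
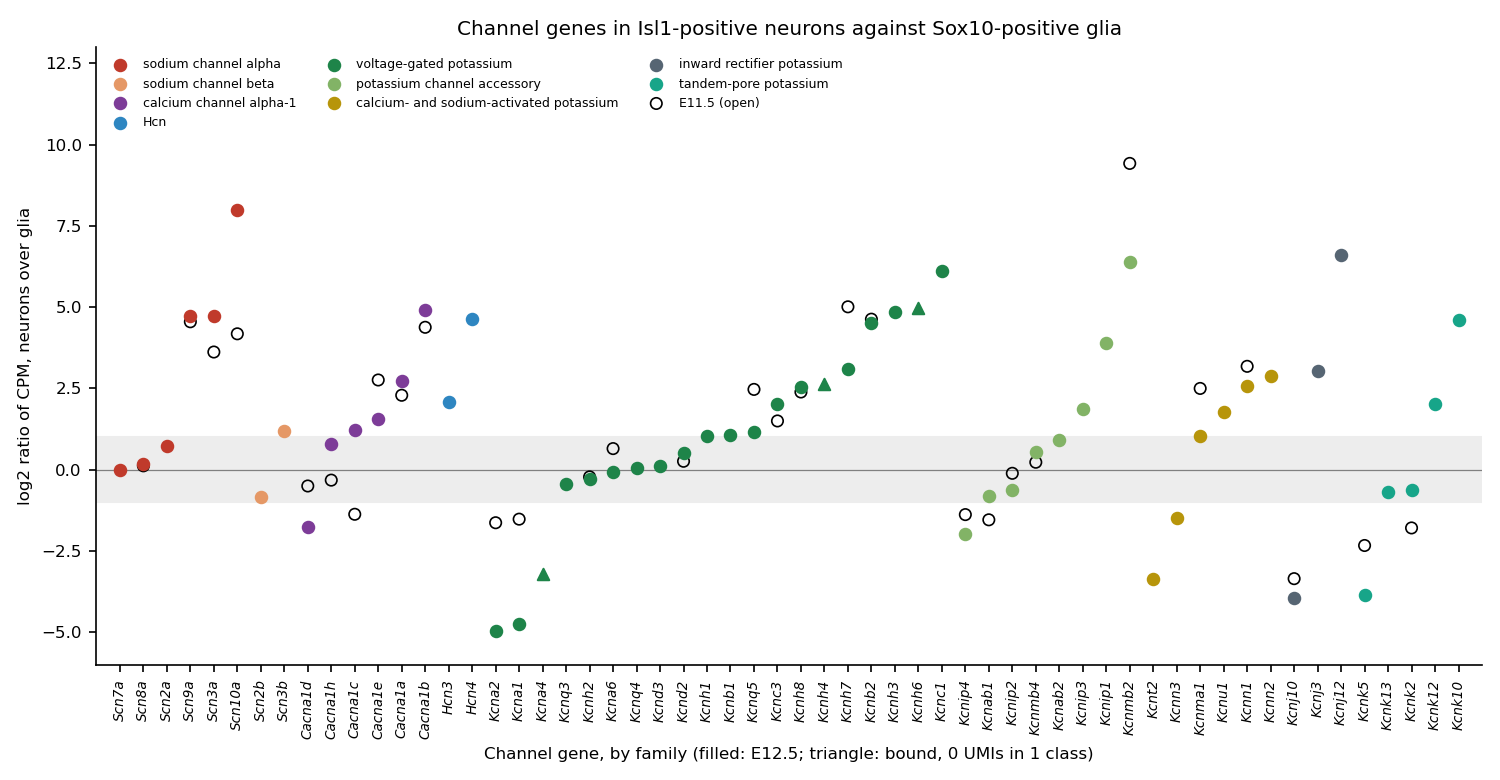
Log2 ratio of neurons to glia for the members compared and reported here, with E12.5 as filled and E11.5 as open symbols, triangles for E12.5 bounds where a class had no UMI, and a grey band within 2-fold; the open circles of Scn9a, Scn10a and Kcna2 are such bounds at E11.5. At E12.5 more members lie above the band than below it, with Scn10a (ratio 254) at the top and Kcna2 (31.4-fold lower) at the bottom.

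Lists of sensory channels and of ion pumps and cotransporters were set beside the members. Of 13 sensory transduction channel genes, 7 could be compared at E12.5, of which 4 were higher and 2 lower in neurons. P2rx3, the ATP receptor of sensory neurons, stood at 69.5 against 1.28 CPM (ratio 54.4). Trpm3, a heat-sensing channel, stood at 7.07 against 72.3 CPM (ratio 0.0978). Of 8 ion pump and cotransporter genes, 2 were higher, 3 lower and 3 neither. Atp1b1, a beta subunit gene of the sodium pump, stood at 40.4 against 2.94 CPM (ratio 13.7).

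**Figure D4:**
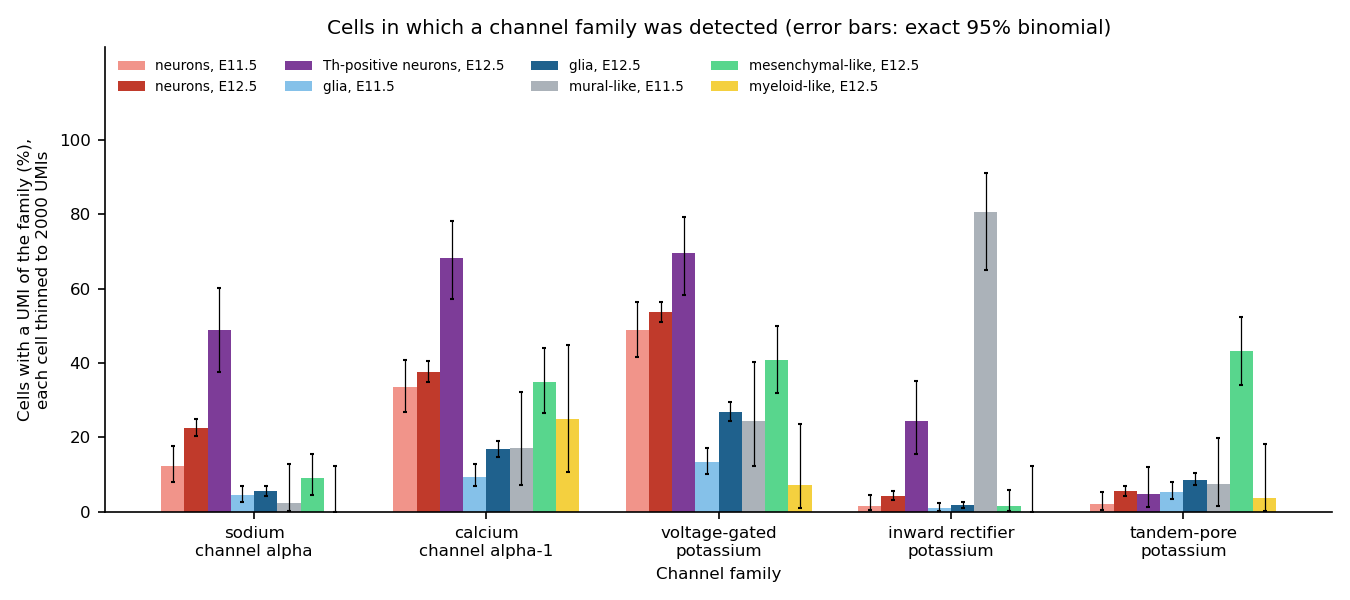
Share in percent of cells thinned to 2000 UMIs that held a UMI of any member of each of 5 families, for neurons and glia of each stage, Th-positive neurons and 3 non-neural types, with exact 95% binomial intervals. At E12.5 sodium channel alpha genes were seen in 22.6% of neurons and 5.45% of glia, inward rectifiers in 80.5% of E11.5 mural-like cells, and tandem-pore genes in 43.1% of mesenchymal-like cells.

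Between the stages more members were higher at E12.5 than lower. In neurons 50 members could be compared, and 20 were 2-fold or more higher at E12.5 and 2 lower, beside 9.39% and 2.62% of all 12306 genes compared. The largest ratios were those of Kcnj3 (a G protein-gated inward rectifier), with 46 UMIs against 1 (11.7, 2.0 to 474), Kcnh6, with 105 against 3 (8.93, 2.97 to 44.0), and Hcn4, with 28 against 1 (7.15, 1.18 to 292). They were followed by Kcnip1, at 25.0 against 4.47 CPM (5.59, 2.98 to 11.8), and Cacna1c, at 13.8 against 2.68 CPM (5.15, 2.3 to 14.3). Scn10a was at 32.5 CPM at E12.5 and 10.7 CPM at E11.5 (ratio 3.03, 2.0 to 4.81). The ratios of Scn9a (1.94, 1.33 to 2.92), Scn3a (1.4, 1.06 to 1.88) and Scn8a (1.04, 0.763 to 1.44) did not pass 2-fold. Kcnh7 was lower at E12.5, at 9.92 against 25.5 CPM (0.39, 0.276 to 0.554), as was Kcnk5, at 1.82 against 4.47 CPM (0.408, 0.174 to 1.01, an interval that includes equality). Kcnmb2, already high at E11.5, had a ratio of 1.34 (1.27 to 1.41). The neuron class itself differed between the stages. A Th UMI was found in 1.6% of neurons at E11.5 and 6.53% at E12.5. Ina stood at 49.1 and 158 CPM and Stmn2 at 866 and 1299.7 CPM, and the other pan-neuronal genes were higher by less. In Th-negative neurons at E12.5 Kcnip1 stood at 12.5 CPM, Cacna1c at 8.08 CPM and Scn9a at 12.5 CPM. The part of these differences in the stage ratios was not tested.

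In glia 34 members could be compared, of which 12 were 2-fold or more higher at E12.5 and 0 lower, beside 10.0% and 1.92% of all 13094 genes compared. Kcna1 stood at 36.3 CPM at E12.5 and 7.71 CPM at E11.5 (ratio 4.71, 3.36 to 6.76), and Kcna6, another Kv1 gene, had 90 UMIs against 13 (4.48, 2.49 to 8.73). Cacna1d stood at 15.6 and 3.16 CPM (4.93, 2.92 to 8.9), and Kcnt2 at 11.8 and 2.17 CPM (5.41, 2.89 to 11.2). Cacna1e (ratio 4.39, 3.24 to 6.08) and Kcnq5 (3.06, 2.56 to 3.68) were also higher, so part of what separated neurons from glia at E11.5 was smaller at E12.5. The ratio of Kcnmb2 in glia was the largest, at 11.0 (4.88 to 30.6), on 102 UMIs against 6. The 6 pan-neuronal genes did not move together in the same glia. Stmn2 was 2.57-fold higher at E12.5, where it stood at 29.5 CPM. Elavl3 (19.8 against 11.9 CPM) and Dcx (3.32 against 1.58 CPM) were also higher. Tubb3 stood at 89.8 against 86.5 CPM, Ina at 12.1 against 14.0 CPM and Elavl4 at 76.9 against 105 CPM. The part of free neuronal RNA in the Kcnmb2 value was not tested. Kcnk5 (1.18) and Scn8a (0.994) did not pass 2-fold.

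Ntrk3 encodes the neurotrophin receptor TrkC, best known from mechanoreceptive and proprioceptive sensory neurons. The comparison by this gene was added after the values were seen. At E12.5, 119 neurons had a UMI of Ntrk3 and 1167 had none. Of 45 members compared, 10 were 2-fold or more higher in Ntrk3-positive neurons, 1 was lower and 34 neither, beside 3.77% higher and 6.41% lower among all 11881 genes. The median log2 ratio was 0.5 over the members and 0.02 over all genes. The counts higher and lower depended on the setting. They were 2 and 1 of 25 when cells were thinned to 2000 UMIs, beside 4.4% and 8.93% of all genes. With per-cell means they were 6 and 1 of 45, beside 3.59% and 7.11%. With 2 UMIs required of each gate gene they were 17 and 3 of 44, beside 10.9% and 5.95%.

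Scn2a and Scn3b had the largest ratios of this comparison, each on few UMIs. Of the 6 sodium channel alpha genes compared, 2 were 2-fold or more higher and 4 neither. Scn2a stood at 12.9 CPM in Ntrk3-positive and 2.93 CPM in Ntrk3-negative neurons, from 12 and 23 UMIs (ratio 4.41, 2.0 to 9.24). Scn3b, a beta subunit gene, had 9 UMIs against 19 (4.01, 1.6 to 9.29). Scn9a stood at 66.8 against 22.2 CPM (3.01, 2.22 to 4.05), and its 62 UMIs lay in 16 of the 119 positive cells, so that a minority of cells carried the level. Scn3a came close to 2-fold, at 66.8 against 34.2 CPM (1.96, 1.46 to 2.59). Scn8a (1.59, 1.06 to 2.32) and Scn10a (1.38, 0.963 to 1.93) did not pass it, and the interval of Scn10a includes equality.

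Like Scn2a and Scn3b, the other members higher with Ntrk3 rested on few UMIs, and they were spread over several families. Kcnj3, a G protein-gated inward rectifier gene, had 12 UMIs against 34 (2.99, 1.41 to 5.91), a direction that turned with 2 UMIs required of each gate gene (ratio 0.926). Kcnma1, the pore gene of the large-conductance calcium-activated channel, had 11 against 37 (2.51, 1.16 to 5.03). Kcnab2, a Kv1 beta subunit gene, had 12 against 41 (2.48, 1.18 to 4.8). Kcnk2 had 11 against 39 (2.39, 1.1 to 4.75), and the T-type calcium channel gene Cacna1h 13 against 47 (2.34, 1.16 to 4.4). The member that was lower, Hcn4, had 1 UMI against 27, and its interval includes equality (ratio 0.313, 0.00765 to 1.9).

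The most abundant members varied less with Ntrk3. Kcnmb2 stood at 1386 against 1052 CPM (ratio 1.32, 1.24 to 1.4), Cacna1e at 177 against 115 CPM (1.54, 1.29 to 1.82) and Kcnq5 at 159.6 against 206 CPM (0.774, 0.649 to 0.916). Of the 3 Kv partner genes listed 1 was higher, Dpp10, with 17 UMIs against 11 (13.1, 5.78 to 30.9). At E11.5, where 43 neurons had Ntrk3 and 145 had none, Scn9a had 29 UMIs in 7 of the positive cells, or 49.5 CPM, and 2 UMIs in the others. Scn3a had 41 UMIs in the positive cells and 19 in the others there, Cacna1e stood at 157 against 31.4 CPM and Kcnmb2 at 1297 against 639 CPM. Genes of neuronal differentiation moved with the same split. Stmn2 stood at 2255 against 374 CPM at E11.5 and at 1849.9 against 1235 CPM at E12.5, and the glial gene Fabp7 at 85.2 against 215 CPM at E12.5. Median depth at E12.5 was 7056 UMIs with Ntrk3 and 6455 without, a Th UMI was found in 10.1% and 6.17% of the cells, and the part of these differences in the channel values was not tested.

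Th encodes tyrosine hydroxylase, the first enzyme of catecholamine synthesis, found in sympathetic neurons and in some sensory neurons. A Th UMI was found in 84 of 1286 neurons at E12.5, of which 12 had Ntrk3, and in 3 neurons at E11.5, too few to compare. Of 45 members compared, 25 were 2-fold or more higher in Th-positive neurons, 2 were lower and 18 neither, beside 10.0% higher and 10.3% lower among all 11881 genes, and the medians of the log2 ratio were 1.05 and 0.01. Scn9a was foremost, at 160 CPM in Th-positive and 12.5 CPM in Th-negative neurons (ratio 12.8, 9.81 to 16.7). Its 137 UMIs lay in 42 of the 84 Th-positive cells, and after thinning in 19.5% (11.6 to 29.7) of them. The next were Kcnip1, at 140.1 against 12.5 CPM (11.2, 8.51 to 14.8), and Kcnj12, at 65.4 against 6.57 CPM (9.95, 6.7 to 14.8). Cacna1c followed, at 66.6 against 8.08 CPM (8.23, 5.66 to 12.0). Of the other sodium and calcium channel genes, Scn10a was at 96.9 against 25.5 CPM (3.8, 2.91 to 4.93). Scn3a was at 80.6 against 33.0 CPM (2.44, 1.85 to 3.2) and Cacna1e at 263 against 106 CPM (2.47, 2.13 to 2.87).

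Some members did not follow. Kcnn1 was lower in Th-positive neurons, at 5.84 against 23.0 CPM (3.94-fold, 1.66 to 12.3), and Kcnd2, a Kv4 gene of the A-type current, had no UMI in them and 64 in Th-negative neurons, at least 2.31-fold lower. Kcnmb2 (ratio 0.969, 0.904 to 1.04) and Kcnq5 (1.12) were near equal. The summed sodium channel alpha level was 424 CPM in Th-positive and 137 CPM in Th-negative neurons, and the summed accessory level 1331 and 1193 CPM. Sodium channel alpha genes were seen in 48.8% of thinned Th-positive cells against 20.7% of the others, and inward rectifiers in 24.4% against 2.75%. The median depth was 10139 UMIs in Th-positive and 6412 in Th-negative neurons, and after thinning to equal depth the median number of members was 5 and 2. Of the related lists, the 3 Kv partner genes were all higher, among them the Kv4-binding proteins Dpp6 (119 against 25.1 CPM, ratio 4.74) and Dpp10 (15.2 against 1.89 CPM, ratio 8.01). Of 6 sensory transduction genes 4 were higher, 1 lower and 1 neither. The higher ones included the touch channel gene Piezo2 (18.7 against 2.27 CPM, ratio 8.22) and the acid-sensing Asic2 (40.9 against 5.68 CPM, ratio 7.19). Of 7 calcium channel accessory genes 2 were higher and 0 lower, and of 6 sodium channel partners 3 and 0. Of 8 ion pump and cotransporter genes 1 was higher and 1 lower. Beside these stand the 10.0% higher and 10.3% lower among all genes. Of the pan-neuronal genes, Stmn2 (3435 against 1069 CPM, ratio 3.21) and Ina (413 against 130 CPM, ratio 3.18) were higher in the same cells. Dcx (267 against 188 CPM), Tubb3 (6133 against 4510.4 CPM) and Elavl4 (1205 against 1049.6 CPM) were higher by less, and Elavl3 was lower (723 against 885 CPM). The part of these differences in the channel values was not tested.

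**Figure D5:**
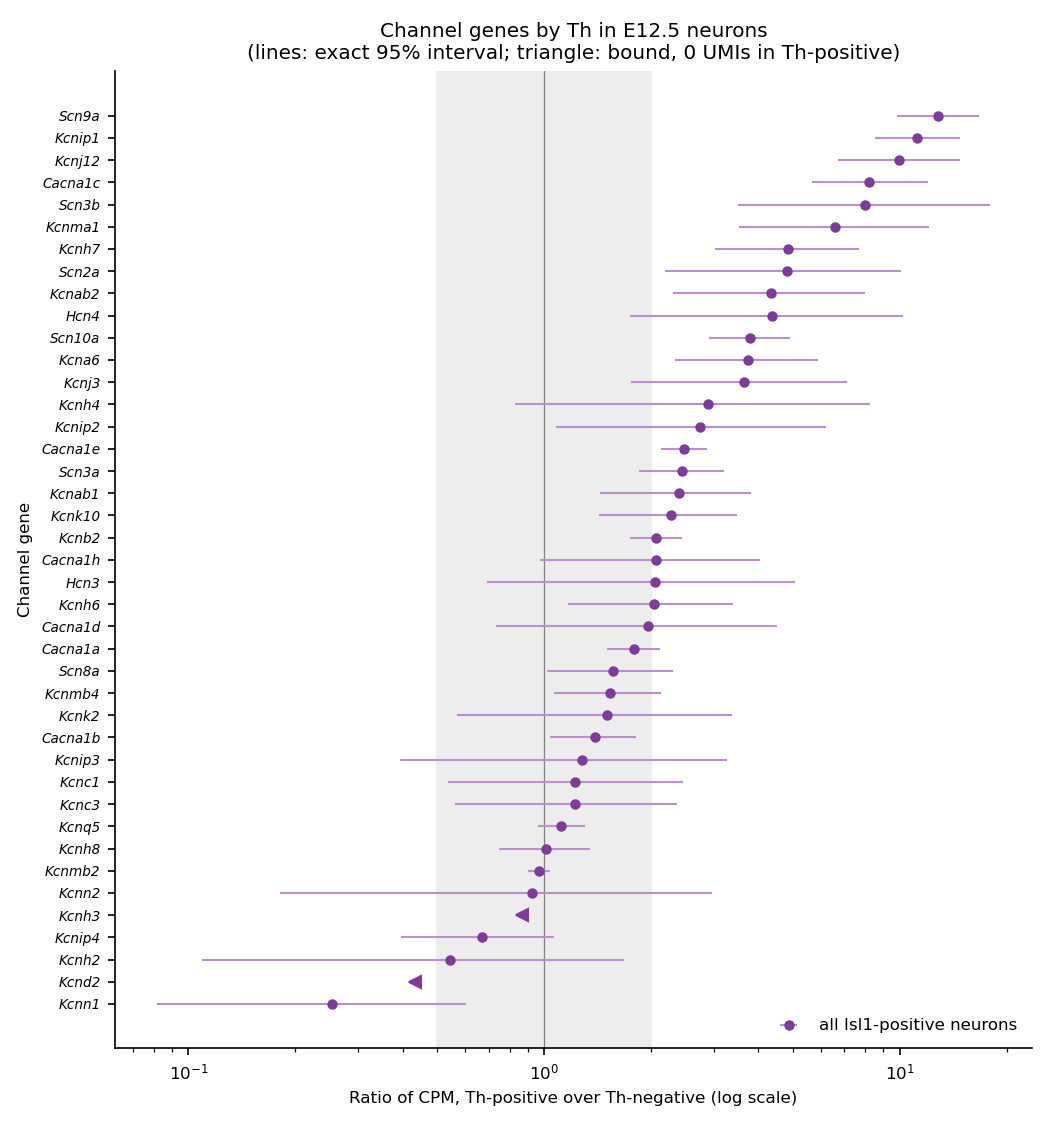
Ratio of the level in Th-positive to that in Th-negative neurons at E12.5 for the members compared and reported here, on a log axis with exact 95% intervals as lines, triangles for bounds and a grey band within 2-fold. Scn9a leads with 12.8, Kcnmb2 lies at 0.969, and Kcnn1 lies lowest with 0.254 among the members with UMIs in both groups.

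Within glia, most members compared stayed within 2-fold by Prss56, a marker gene of boundary cap cells. At E12.5, 375 Prss56-positive glia (median 5698 UMIs) were compared with 838 Prss56-negative ones (6222). Of 29 members 1 was 2-fold or more higher (3.45%), 4 were lower (13.8%) and 24 neither. Among all 12211 genes 2.24% were higher and 2.49% lower. The counts were 3 and 2 of 23 members with 2 UMIs required of each gate gene, beside 3.12% and 3.06% of all genes. The member that was higher, Cacna1e, stood at 75.6 against 26.9 CPM (ratio 2.81, 2.25 to 3.52), and Kcnip4 came close, at 193 against 98.7 CPM (1.96, 1.73 to 2.22). Among those that were lower, Kcnk2 had 10 UMIs against 58 (2.51-fold lower, 1.27 to 5.52). Kcnip2, a KChIP gene, had 7 against 41 (2.54-fold lower, 1.13 to 6.71) and Kcnb2 had 4 against 34 (3.68-fold lower, 1.31 to 14.3). The remaining glial channel genes were within 2-fold, with ratios of 1.39 for Kcna1, 0.789 for Kcnk5, 0.784 for Kcnq5 and 0.853 for Scn8a.

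The non-neural cells were compared with glia, and members went both ways. Of 36 members compared with glia at E12.5, 15 were 2-fold or more higher and 13 lower, beside 14.2% and 11.9% of all 12943 genes. The counts were 7 and 7 of 20 when cells were thinned to 2000 UMIs, beside 11.3% and 14.1% of all genes. They were 12 and 12 of 31 with 2 UMIs per gate gene, beside 14.0% and 12.1%. With a minimum of 100 UMIs they were 5 and 6 of 16, beside 7.9% and 10.7%, so neither direction prevailed under these settings. The highest ratio was that of Kcnj8 (chr6:142510563-142517830, minus strand; promoter above), which encodes Kir6.1, the pore of the vascular ATP-sensitive potassium channel, with 66.6 against 1.79 CPM (37.2, 20.9 to 71.3). It was carried by mural-like cells. At E11.5 it had 256 UMIs in 37 of 41 such cells, or 726 CPM (639.7 to 821). At E12.5 there were 72 UMIs in 20 of 25 cells, or 407 CPM (319 to 513). In thinned cells these were 80.5% and 52% of cells, with median depths of 8255 and 7089 UMIs, and the level in neurons was 1.79 and 0.342 CPM. Abcc9, which encodes the regulatory subunit of the same channel and was one of the genes that chose these cells, stood at 397 and 153 CPM. Inward rectifiers summed to 726 and 430.1 CPM in mural-like cells against at most 20.7 CPM in neurons or glia.

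In mesenchymal-like cells the voltage-gated potassium genes Kcnb2 and Kcnd3, the tandem-pore gene Kcnk2 and the L-type gene Cacna1c were well above glia, although other genes of their families were lower. Compared with glia at E12.5, 15 of 35 members were 2-fold or more higher and 11 lower, beside 13.6% and 12.8% of all 12651 genes; this comparison too was added after the values were seen. The balance turned to 5 higher and 7 lower of 18 when cells were thinned to 2000 UMIs, beside 11.6% and 15.5% of all genes. It turned to 5 and 6 of 16 with a minimum of 100 UMIs, beside 7.68% and 12.5%. With 2 UMIs per gate gene it was 11 and 12 of 30, beside 13.2% and 13.4%. Kcnk2 (chr1:188940126-189134470, minus strand), the mechanosensitive channel TREK-1, stood at 274 against 8.69 CPM (ratio 31.5, 23.9 to 42.2), with UMIs in 86 of 130 cells, although it overlaps another counted gene on its strand. Kcnb2 was at 187 against 4.85 CPM (38.5, 26.7 to 56.6) and Cacna1c at 141 against 5.88 CPM (24.0, 16.8 to 34.7). Kcnd3, a Kv4 gene that also overlaps a counted gene, was at 41.6 against 1.15 CPM (36.2, 16.8 to 86.5). Kcnmb2, which separated neurons from glia, was at 249.8 CPM in these cells against 13.0 CPM in glia (19.2, 15.0 to 24.7). It had a UMI in 65 of 130 of them and, after thinning, in 32.5%. The neuronal gene Stmn2 stood at 22.8 CPM in the mesenchymal-like cells and 29.5 CPM in the glia. Piezo2, of the sensory list, was at 73.9 against 3.96 CPM (18.7).

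Several members counted in glia had few or no UMIs in non-neural cells. Kcna1 had no UMI in 187 non-neural cells, at least 14.2-fold lower than in glia, and none in the mesenchymal-like cells among them, at least 9.0-fold lower. Kcnk5 had 2 UMIs (15.6-fold lower, 4.25 to 129) and 1 UMI (19.8-fold lower, 3.51 to 785) in these 2 groups. Kcnh8 had 1 in each (12.1-fold, 2.11 to 484, and 7.7-fold, 1.34 to 308), and so had Kcna2 (8.38-fold, 1.44 to 337, and 5.32-fold, 0.917 to 214). Kcnip4 was at 12.8 CPM in non-neural and 20.1 CPM in mesenchymal-like cells against 127 CPM in glia (9.94-fold, 6.0 to 17.8, and 6.32-fold, 3.81 to 11.3). Over non-neural cells as a whole, Kcnb2 (ratio 25.0, 17.4 to 36.7; at 121 CPM there and 109.7 CPM in neurons), Kcnd3 (23.0, 10.7 to 55.0), Kcnk2 (20.3, 15.3 to 27.0) and Cacna1c (19.5, 13.8 to 27.8) had the largest ratios after Kcnj8. Mural-like cells had Cacna1c at 76.6 CPM at E11.5 and 164 CPM at E12.5, beside Kcnd2 at 105 and 50.9 CPM, and Kcnq5 at 48.2 and 130.2 CPM. Myeloid-like cells, 30 at E12.5, had no member in 67.9% of thinned cells at a median depth of 8912 UMIs before thinning.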

How the data were processed

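The deposited files were gene-by-barcode matrices of raw UMI counts made by the authors with Cell Ranger 7.0 on build mm39, per the labels, from 10x 3′ libraries of FACS-sorted cells; whether intronic reads were counted is not given in the sources used here. Cells were kept as in the study's methods: at most 10% mitochondrial UMIs, a minimum of 2000 UMIs in the E11.5 library and of 1000 in the E12.5 library, and a Scrublet doublet score under 0.2. Of the 1431 and 3762 barcodes (10287595 and 23460243 UMIs), the mitochondrial limit removed 179 and 66 and the doublet score 7 and 67.

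UMIs were summed over the cells of each class and scaled to CPM (Python 3.11.15, NumPy 2.4.6, SciPy 1.17.1, pandas 2.3.3). A positive cell had at least 1 UMI of the gate gene. Ratios needed 20 UMIs over both classes, and a class at 0 was set to a floor of 3 UMIs. The ratio code was tested on simulated counts. No p-value was computed, since each stage had 1 library and cells are not replicates. Named members were, per comparison and direction, the 5 with the largest ratio past 2-fold, the 3 with the most UMIs per family, and those with no UMI; other members and genes named were picked after their values were seen. The members and lists were chosen with earlier results of these data known. Shares were compared after thinning cells to 2000 UMIs (165 shallower cells left out at E12.5).

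The 3′ counts do not rank one gene against another. Of the members, 4 overlap a counted gene on the same strand (Kcnd3, Kcnip1, Kcnk2, Kcnk4), so shared reads are possible for them. An overlap with a counted gene on the other strand was found for 54. Positions are GENCODE M39 on GRCm39; promoters are RefSeq on GRCm38.p6 (85 of 119 members, 115 starts). Alternatives were a 2-UMI gate, Isl1 alone, Leiden clusters (scanpy 1.11.5; 3000 variable genes, 30 components, 15 neighbours, resolution 1), 2000 UMIs at both stages, no doublet filter, per-cell means, thinning, scaling without mitochondrial, ribosomal and hemoglobin genes, and minimums of 5 and 100 UMIs. The rule that named clusters from markers was set after the values were seen. Libraries from Prss56-Cre embryos were not analysed here, and some genes, and the planned comparisons that need them, are not reported here.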

Additional observations from a re-analysis of the deposited data

Results flagged for a closer look

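Cacna1c lay on opposite sides of equality in the neuron to glia comparison at the 2 stages. Its ratio was 0.388 (0.133 to 0.931) at E11.5, from 6 UMIs in neurons and 35 in glia, and 2.35 (1.66 to 3.37) at E12.5, from 121 and 46 UMIs. The difference between the stages was not tested, since each stage had 1 library. The glial level was similar (6.91 and 5.88 CPM) and the neuronal level was 2.68 and 13.8 CPM, with Th-positive neurons at 66.6 CPM and Th-negative neurons at 8.08 CPM at E12.5.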

How the results depend on the processing

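Each stage had 1 library, so the intervals cover counting error, and litter, dissociation and sequencing run cannot be told apart from stage. No paired analysis was possible because the groups share no replicate numbers beyond 1 library each. At 3 UMIs or fewer per class a ratio is little more than a bound, and 51 members had under 20 UMIs in all. Of 166 recomputed counts of members, 119 stayed within 1.5 times the reported count and 47 moved. Of 1859 recomputed ratios of named members, 1784 stayed and 74 moved (38 of them on thinning). A ratio stayed if it lay inside the counting interval of the reported ratio, which is wide where UMIs are few. The minimums of 5 and 100 UMIs only choose genes and cannot change a ratio. Their 218 and 138 ratios, counted among those that stayed, therefore test nothing. Only 1 ratio changed direction, that of Kcnj3 in Ntrk3-positive neurons, to 0.926 with 2 UMIs per gate gene. No count moved with cluster classes, with 2000 UMIs at both stages, without the doublet filter or when scaled without mitochondrial, ribosomal and hemoglobin genes. The splits of neurons by Th and Ntrk3 and of glia by Prss56 were not recomputed with cluster classes. Fewer UMIs or a higher minimum leave fewer members to compare, and a lower minimum leaves more. Counts below are members 2-fold or more higher, then lower, and give only those that moved. Each is given out of the members compared, with the shares of all genes in brackets. Thinned to 2000 UMIs they were 6 and 2 of 10 for neurons against glia at E11.5 (9.24% and 18.7%). At E12.5 19 of 36 were higher (12.2%). Between stages in neurons they were 9 and 1 of 26 (9.3% and 3.96%). In Ntrk3-positive neurons 2 of 25 were higher (4.4%), and in Th-positive neurons they were 9 and 1 of 25 (10.9% and 11.1%). In Prss56-positive glia 1 of 16 was lower (3.1%). In non-neural cells they were 7 and 7 of 20 (11.3% and 14.1%). In mesenchymal-like cells they were 5 and 7 of 18 (11.6% and 15.5%), where lower members then outnumbered higher ones. With a minimum of 5 UMIs 29 of 55 were higher in neurons against glia at E11.5 (13.6%) and 16 of 84 lower at E12.5 (24.8%). Between stages 4 of 72 were lower in neurons (4.79%), and in glia they were 19 and 1 of 65 (14.9% and 3.93%). In Ntrk3-positive neurons they were 18 and 2 of 69 (8.78% and 5.34%), and in Prss56-positive glia 4 and 9 of 58 (5.46% and 5.44%). In non-neural cells 26 of 66 were higher (18.5%), and in mesenchymal-like cells 26 of 63 (18.8%). With a minimum of 100 UMIs they were 7 and 3 of 12 in neurons against glia at the earlier stage (8.59% and 15.5%). At the later one they were 18 and 6 of 31 (11.7% and 19.2%). Between stages in neurons they were 9 and 1 of 24 (4.31% and 1.12%). In Ntrk3-positive neurons they were 1 and 0 of 21 (0.778% and 2.01%), and in Th-positive neurons 11 and 1 of 21 (5.84% and 7.23%). In Prss56-positive glia 1 of 12 was lower (0.704%). In non-neural cells they were 5 and 6 of 16 (7.9% and 10.7%). In mesenchymal-like cells they were 5 and 6 of 16 (7.68% and 12.5%), again with more lower than higher. With 2 UMIs per gate gene they were 17 and 3 of 44 in Ntrk3-positive neurons (10.9% and 5.95%). In Th-positive neurons 4 of 44 were lower (10.2%), and in Prss56-positive glia they were 3 and 2 of 23 (3.12% and 3.06%). With Isl1 alone 4 of 54 were lower between stages in neurons (2.69%). With per-cell means 6 of 45 were higher in Ntrk3-positive neurons (3.59%) and 3 of 29 in Prss56-positive glia (2.65%). The cause was not tested for these last 3 settings.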
